A study of Homo sapiens with 6 samples.

Results

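The 40 rows described here are the HOX cluster genes of a gene-level table of 20356 rows: every row whose whole symbol is HOXA, HOXB, HOXC or HOXD followed by digits. They carry 39 symbols, since HOXC4 stands on 2 rows with different identifiers. RNA was sequenced from 3 libraries of H1975 OR, an osimertinib-resistant derivative of the lung adenocarcinoma line H1975 kept in 1 µM osimertinib, and from 3 libraries of parental H1975 under normal conditions, all in RPMI-1640 with serum. Osimertinib is an inhibitor of mutant EGFR. H1975 OR is a single derived line, so its resistance, the presence of the drug and other changes of the line cannot be told apart. The question of the design was which genes differ in expression after resistance was acquired. The series states biological replicates, with no further detail on cultures.

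HOX genes encode homeodomain transcription factors that give cells their position along the body axis. In mammals they lie in 4 clusters, HOXA on chromosome 7, HOXB on chromosome 17, HOXC on chromosome 12 and HOXD on chromosome 2, and members with the same number in different clusters are paralogs. Low-numbered genes act toward the head and high-numbered genes toward the tail, and adult cells keep much of their HOX pattern, held silent by Polycomb complexes or active by Trithorax-type complexes. In the lung, HOXA5 and several HOXB genes are known from development of the airway and its mesenchyme. Here paralogs 1 to 3 are called anterior, 4 to 8 central and 9 to 13 posterior.

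HOX genes were low in both lines, and the clusters differed between the lines in opposite directions. The summed levels of HOXA and HOXB were lower in H1975 OR and those of HOXC and HOXD were higher. The sum over all clusters was close between the lines. The rise of HOXC13 alone was larger than that of the HOXC sum, and 7 of 10 HOXC rows overlapped between the lines. In H1975 OR, HOXA3, HOXA5, HOXA6 and HOXA11 were listed at 0 in every library while all parental libraries had values above 0 for them. HOXC13, a posterior gene known for hair and nail formation, was 5.09-fold higher and was the highest HOX gene of H1975 OR. HOXD3, an anterior gene, was 5.70-fold higher at a level under 1 FPKM.

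The promoters shown here belong to HOXA genes that were lower in H1975 OR (HOXA6, HOXA7, HOXA13 and, by a smaller fold, HOXA10). Also shown are HOXA9, their neighbour whose libraries overlapped between the lines, and HOXC4, one of the highest HOX genes by FPKM in both lines. Each is the 250 bases before a RefSeq start in GRCh38.p14, read 5′ to 3′ on the gene's strand, and capitals mark, on either strand, the TATA box letters TATAAA, the GC box letters GGGCGG and the CCAAT box letters. HOXA6 is chr7:27147775-27148024 (minus), HOXA7 chr7:27156676-27156925 (minus), HOXA13 chr7:27200092-27200341 (minus), HOXA9 chr7:27165538-27165787 (minus), HOXA10 chr7:27179862-27180111 (minus) and HOXC4 chr12:54016638-54016887 (plus).
HOXA6: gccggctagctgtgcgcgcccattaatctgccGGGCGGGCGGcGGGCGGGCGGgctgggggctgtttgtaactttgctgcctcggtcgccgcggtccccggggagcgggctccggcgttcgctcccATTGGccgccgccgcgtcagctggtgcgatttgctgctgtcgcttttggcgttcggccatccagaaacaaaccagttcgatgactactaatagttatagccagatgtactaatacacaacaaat
HOXA7: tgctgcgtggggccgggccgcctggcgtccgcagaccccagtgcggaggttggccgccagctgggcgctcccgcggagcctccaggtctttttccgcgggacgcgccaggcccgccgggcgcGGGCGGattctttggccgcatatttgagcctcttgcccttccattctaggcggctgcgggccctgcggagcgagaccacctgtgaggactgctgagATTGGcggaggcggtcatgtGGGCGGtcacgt
HOXA13: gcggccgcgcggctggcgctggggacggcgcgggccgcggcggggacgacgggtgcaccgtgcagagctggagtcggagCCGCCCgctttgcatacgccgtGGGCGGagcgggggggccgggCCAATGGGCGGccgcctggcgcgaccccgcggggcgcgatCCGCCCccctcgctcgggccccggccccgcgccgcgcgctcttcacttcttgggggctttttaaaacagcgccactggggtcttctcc
HOXA9: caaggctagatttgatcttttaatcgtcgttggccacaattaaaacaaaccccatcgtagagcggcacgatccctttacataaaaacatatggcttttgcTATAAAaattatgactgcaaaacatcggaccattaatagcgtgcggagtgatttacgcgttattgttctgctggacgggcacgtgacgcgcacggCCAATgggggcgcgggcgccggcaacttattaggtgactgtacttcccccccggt
HOXA10: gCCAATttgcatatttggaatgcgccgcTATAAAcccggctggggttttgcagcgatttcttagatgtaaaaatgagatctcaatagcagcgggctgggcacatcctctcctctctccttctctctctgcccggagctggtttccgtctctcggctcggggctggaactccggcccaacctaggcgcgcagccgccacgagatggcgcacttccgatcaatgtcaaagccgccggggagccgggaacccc
HOXC4: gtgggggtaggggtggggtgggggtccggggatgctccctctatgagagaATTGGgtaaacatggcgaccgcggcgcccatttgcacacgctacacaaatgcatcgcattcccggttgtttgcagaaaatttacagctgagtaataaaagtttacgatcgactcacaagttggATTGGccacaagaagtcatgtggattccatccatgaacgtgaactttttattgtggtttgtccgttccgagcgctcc

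RefSeq rows were matched for 20 of the 39 symbols, with 27 starts in all. For 13 starts, the 40 bases after the start were found in a GENCODE transcript of the gene. This was not so for the HOXA9, HOXC4 and HOXA11 starts or the second HOXA10 start, among others. TATAAA was present in 10.7% of 35116 promoter windows of this length, GGGCGG in 42.6%, and CCAAT in 32% (both strands, overlapping matches counted). The HOXA9 window and both HOXA10 windows held 1 TATAAA and 0 GGGCGG. The windows of HOXA4, HOXA6, HOXA7 and HOXA13 held 0 TATAAA and 1, 4, 2 and 4 GGGCGG. HOXA2 and HOXA11 held neither, and among the 7 HOXA3 starts the first held 1 of each. The median number of CG over all windows was 11. HOXA13 held 40 CG, HOXA7 28, HOXA6 27, HOXA4 26, HOXA9 20, HOXA11 11 and HOXA2 8. The HOXA10 starts held 19 and 24, and the 7 HOXA3 starts held 0 to 26. The HOXC4 window, which RefSeq also gives for HOXC5, held 14. TGATNNAT, the letters of a site for a HOX protein bound with PBX, was found in HOXA2, HOXB1 and HOXD11 and is present in 6.47% of all windows. These letter matches are a description of the windows and say nothing of what is bound there.

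Levels are FPKM, a measure scaled for the length of the transcript and for the mapped total, meant for comparison between genes per length. Each library had 11410 to 11555 genes at 1 FPKM or more. The number of reads is unknown, and an estimate of the mapped sequence from deposited coverage gave 9.72 to 11.5 gigabases for H1975 OR and 10.8 to 14.7 for H1975. It is rough, since it takes the most common ratio of coverage to FPKM. In each library, 11.1% to 11.9% of genes above 1 FPKM lay at that ratio. Spearman correlations over genes were 0.9947 to 0.9962 between libraries of a group and 0.8456 to 0.8538 between groups. Markers of the labelled tissue differed widely. The summed level of 10 epithelial markers was 934 to 1015 FPKM in H1975 OR and 3296 to 3791 FPKM in H1975, and all 10 were lower by limma at a false discovery rate of 0.05. Of 10 lung lineage markers, 2 were tested and both were lower. These were NKX2-1 and FOXA2, listed at 0 in every H1975 OR library and averaging 26.7 and 3.97 FPKM in H1975. Of the others, NAPSA and SLC34A2 were lower without overlap, and the rest overlapped between the lines. In every library, 4 of the 10 stayed under 0.1 FPKM. Whether these markers play a part in the HOX differences was not tested. In bulk RNA, fewer cells with a transcript and less of it per cell cannot be told apart.

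Of the 40 members, 6 averaged 1 FPKM or more in one line or both: HOXA10, HOXC4, HOXC6, HOXC9, HOXC10 and HOXC13. In H1975 OR all 6 reached it, and in H1975 4 did, without HOXC10 and HOXC13. A further 16 were under 1 FPKM in both lines but reached 0.1 FPKM in some library, and 18 stayed under 0.1 FPKM in every library. HOXB2, HOXC12 and HOXD13 were listed at 0 in all 6 libraries. The highest value of any member was 4.58 FPKM, for HOXC13 in H1975 OR.

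The libraries of the lines did not overlap for 20 of the 40 members, 5 of them higher and 15 lower in H1975 OR, where 58.6% of all rows of the table did not overlap (30.2% higher, 28.4% lower). The members as a whole thus did not separate more often than the table's rows. The split by cluster was uneven: 10 of 11 HOXA rows were lower without overlap and 0 were higher, 3 of 9 HOXD rows were higher and 2 lower, 2 of 10 HOXC rows were higher and 1 lower, and 2 of 10 HOXB rows were lower. Zero values were also one-sided, with 8 members (among them HOXA3, HOXA5, HOXA6, HOXA11 and HOXD12) at 0 in all H1975 OR and above 0 in all H1975 libraries, and 0 members the other way. Over the whole table these patterns were seen in 0.997% and 0.776% of rows. A listed 0 may be a failed estimate rather than a measured absence, so these members are given with their values and no fold.

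**Figure D1:**
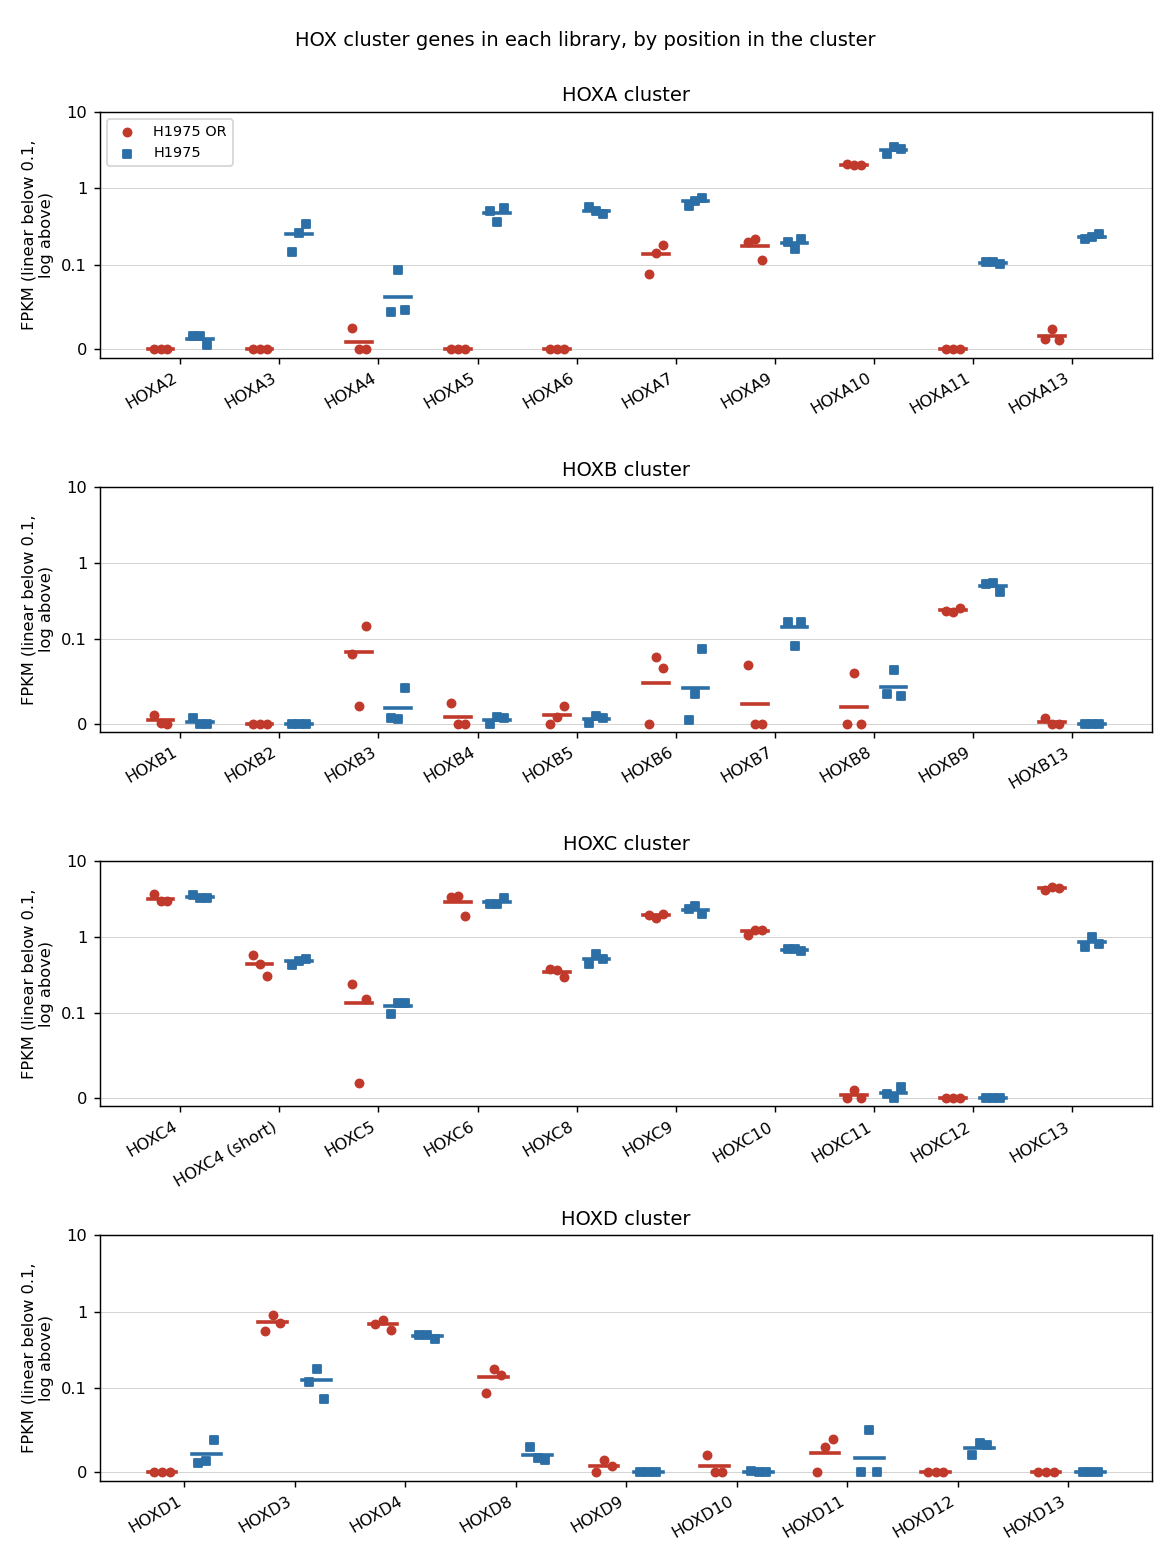
FPKM of 39 HOX rows in each library, by cluster and in order of paralog number, on an axis that is linear below 0.1 and logarithmic above (red circles, H1975 OR; blue squares, H1975; short lines, group means). HOXA points of H1975 OR lie at or near 0 for most genes below HOXA9, HOXC13 and HOXD3 lie above H1975, and HOXB genes apart from HOXB9 are close to the floor.

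In sum over a cluster, HOXA measured 2.42, 2.43 and 2.34 FPKM in H1975 OR, against 5.24, 5.89 and 6.03 FPKM in H1975. The ratio of the means was -1.26 on the log2 scale, and the libraries did not overlap. HOXA took 12.3% to 13.3% of all HOX signal in H1975 OR and 29.6% to 32.5% in H1975. HOXC went the other way, with 15.5, 14.9 and 13.3 FPKM in H1975 OR and 11.0, 11.5 and 11.2 FPKM in H1975 (log2 ratio 0.38), or 75.4% to 78.7% of HOX signal in H1975 OR against 60.1% to 62.3% in H1975. By FPKM, HOXC thus held most of the HOX signal of both lines. HOXC13 averaged 4.37 FPKM in H1975 OR and 0.859 FPKM in H1975, a larger rise than that of the HOXC sum. Deposited coverage, which is bases read per base of the gene, ranked the rows otherwise. In the first H1975 library, HOXC6 had 2.75 FPKM at a coverage of 1.27 and the longer HOXC4 row 3.55 FPKM at 3.51. HOXA10 had 2.84 FPKM at 28.7 there, and HOXC13 0.737 FPKM at 10.9. The share of HOXC was not computed from coverage. HOXD averaged 1.58 ± 0.28 FPKM in H1975 OR and 0.687 ± 0.0867 FPKM in H1975 (SD, n = 3 each; log2 ratio 1.20). HOXB averaged 0.437 ± 0.0512 FPKM in H1975 OR and 0.758 ± 0.00401 FPKM in H1975 (log2 ratio -0.79). No test was run on these sums. The sum over all clusters was 19.0 ± 1.20 FPKM in H1975 OR and 18.4 ± 0.611 FPKM in H1975 (SD, n = 3 each), a difference smaller than the spread of the H1975 OR libraries.

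**Figure D2:**
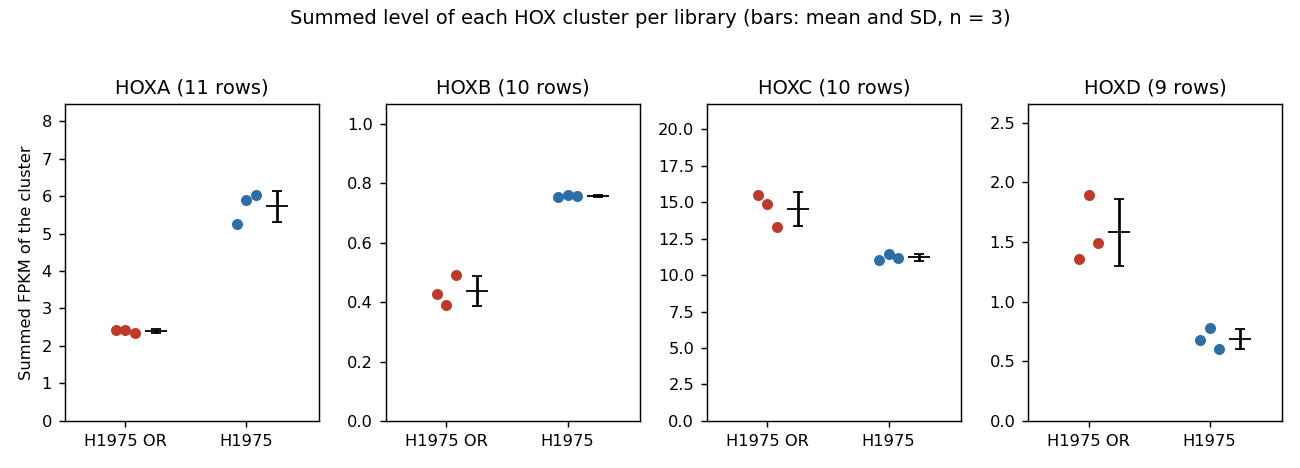
Summed FPKM of each HOX cluster in each library (points) with the mean and SD of 3 libraries (bars), H1975 OR in red and H1975 in blue; each panel has its own axis from 0. HOXA and HOXB sums are lower in H1975 OR and HOXC and HOXD sums are higher, with no overlap between the lines in any panel.

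The difference by position was not the same in each cluster. In HOXA, the 4 central genes together measured 0.145 ± 0.0339 FPKM in H1975 OR and 1.72 ± 0.0821 FPKM in H1975 (log2 ratio -3.57), while the 4 posterior genes measured 2.25 ± 0.0834 and 3.72 ± 0.312 FPKM in H1975 OR and H1975 (log2 ratio -0.73). In HOXC, which has no anterior member, the posterior genes summed to 7.51 ± 0.273 FPKM in H1975 OR and 3.86 ± 0.401 FPKM in H1975 (log2 ratio 0.96). The central HOXC genes summed to 7.05 ± 1.37 and 7.37 ± 0.238 FPKM in H1975 OR and H1975, which overlap. In HOXD the anterior genes gave 0.724 ± 0.179 FPKM in H1975 OR and 0.148 ± 0.0353 FPKM in H1975 (log2 ratio 2.29). This H1975 OR sum was HOXD3 alone, since HOXD1 was at 0 there and above 0 in every H1975 library. The central HOXD genes had a log2 ratio of 0.73. The posterior HOXD genes stayed near the floor, at 0.0378 ± 0.0147 FPKM in H1975 OR and 0.0463 ± 0.0334 FPKM in H1975 (SD, n = 3 each). In HOXB the log2 ratios were 2.10 for anterior, -1.13 for central and -1.06 for posterior genes. The anterior HOXB sums overlapped between the lines.

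Tests were made with limma on log2(FPKM + 1) over all genes, and adjusted p-values are from that fit. Among genes averaging 1 FPKM or more in at least one line, 3 of the 6 HOX members tested passed a false discovery rate of 0.05, HOXC13 and HOXC10 higher and HOXA10 lower, where 78.0% of the 12107 genes tested passed (39.9% higher, 38.1% lower). HOXC13 and HOXC10 entered this test only through their level in H1975 OR. With no filter on low values, 17 of 37 members passed, 5 higher and 12 lower, where 61.1% of 18038 genes passed. Neither share of HOX members is above that of the table. By cluster, this second fit called 8 of 11 HOXA genes lower, 2 of 9 HOXB genes lower, 2 of 9 HOXC genes higher and 1 lower, and 3 of 8 HOXD genes higher and 1 lower, where 31.4% of all genes were called higher and 29.7% lower. Fold changes on this scale understate the change of low genes, so the ratio of mean FPKM is given beside them.

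HOXC13 measured 4.15, 4.58 and 4.38 FPKM in H1975 OR, against 0.737, 1.02 and 0.820 FPKM in H1975. All 3 H1975 OR libraries lay above all parental ones by several times the spread. The log2 fold change was 1.53 ± 0.07 (SE, adjusted p = 9.48e-06, unfiltered fit). HOXC13 stood above 55.6% of all rows in H1975 OR and above 42.9% in H1975. HOXC10, a posterior gene that patterns the lumbar spine and hindlimb, measured 1.06, 1.26 and 1.25 FPKM in H1975 OR and 0.697, 0.690 and 0.661 FPKM in H1975. Its log2 fold change was 0.38 ± 0.05 (SE, adjusted p = 0.000818, unfiltered fit), a 1.74-fold ratio of means, and the lines did not overlap. HOXC11 and HOXC12, which lie between these genes and share their posterior class, stayed at or under 0.0126 FPKM in every library. Among the coding genes, the rise on the posterior side of the cluster was thus measured in HOXC10 and HOXC13. HOXC11 and HOXC12 were at the floor, where a rise could be missed.

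The other HOXC genes were close between the lines. HOXC4, read by 2 rows, measured 3.73, 2.94 and 2.96 FPKM in H1975 OR and 3.55, 3.25 and 3.23 FPKM in H1975 for the longer row (log2 fold change -0.05, adjusted p = 0.597). The short HOXC4 row ran from 0.306 to 0.586 FPKM in H1975 OR and from 0.435 to 0.516 FPKM in H1975. HOXC6, which acts at the cervical to thoracic level of the axis, measured 3.38, 3.48 and 1.88 FPKM in H1975 OR and 2.75, 2.72 and 3.24 FPKM in H1975 (adjusted p = 0.912). The third H1975 OR library stands below the others, and without it the log2 fold change was 0.18 (adjusted p = 0.0624), against -0.02 with all libraries. Leaving out the third H1975 library gave 0.04. HOXC9, a thoracic patterning gene, measured 1.99, 1.81 and 2.05 FPKM in H1975 OR and 2.32, 2.58 and 2.02 FPKM in H1975 (log2 fold change -0.16, adjusted p = 0.0811). Without the third H1975 library, its log2 fold change of -0.23 passed the test (adjusted p = 0.0263).

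HOXC5 and HOXC8 fell under the filter on low values. HOXC5 ranged from 0.0178 to 0.241 FPKM in H1975 OR and from 0.0990 to 0.138 FPKM in H1975, with complete overlap. HOXC8 measured 0.380, 0.370 and 0.297 FPKM in H1975 OR and 0.444, 0.600 and 0.511 FPKM in H1975. It passed the unfiltered test as lower (log2 fold change -0.17, adjusted p = 0.0208), though not without the third H1975 OR library (adjusted p = 0.0659) or the third H1975 library (adjusted p = 0.0553). The long rows of HOXC4 and HOXC6 span other HOXC genes on the same strand: HOXC4 encloses HOXC5 and overlaps HOXC6, and HOXC6 encloses HOXC8 and HOXC9. How the deposited values divide reads among them is not given in the sources used here.

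HOXA10, a regulator of uterine and blood development, was the highest HOXA gene. It measured 2.10, 2.05 and 2.03 FPKM in H1975 OR and 2.84, 3.45 and 3.28 FPKM in H1975, with no overlap. The log2 fold change was -0.45 ± 0.08 (SE; adjusted p = 0.00013), a ratio of means of 0.645. It stood above 47.9% of all rows in H1975 OR and above 52.8% in H1975. HOXA9, its neighbour, known with MEIS1 in acute leukaemia, measured 0.201, 0.215 and 0.114 FPKM in H1975 OR and 0.199, 0.159 and 0.214 FPKM in H1975. It was the one HOXA gene whose libraries overlapped (unfiltered fit, adjusted p = 0.724).

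Central HOXA genes were lower or listed at 0 in H1975 OR. HOXA5, needed for lung branching and respiratory development in mice, was listed at 0 in every H1975 OR library and measured 0.501, 0.364 and 0.560 FPKM in H1975 (adjusted p = 0.000137, unfiltered fit). HOXA6 was likewise at 0 in every H1975 OR library and measured 0.573, 0.498 and 0.465 FPKM in H1975 (adjusted p = 1.09e-05). The deposited coverage of these genes in H1975, which is bases read per base of the gene, was 3.83 to 7.16 for HOXA5 and 3.58 to 5.69 for HOXA6, against 0 for both in H1975 OR. The parental values of HOXA5 and HOXA6 thus rest on more than single reads. Coverage in H1975 was thinner for HOXA3 (0.752 to 1.18) and HOXA11 (1.11 to 1.59), which were also listed at 0 in H1975 OR. HOXA7, a gene of axial skeleton patterning, measured 0.0891, 0.141 and 0.181 FPKM in H1975 OR and 0.592, 0.694 and 0.741 FPKM in H1975 (ratio of means 0.203, log2 fold change -0.56, adjusted p = 0.000106). HOXA4 was at 0.0249, 0 and 0 FPKM in H1975 OR and at 0.0442, 0.0936 and 0.0461 FPKM in H1975. Its call as lower (adjusted p = 0.0259) was lost without the second (adjusted p = 0.0828) or the third H1975 OR library (adjusted p = 0.0813).

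Among the anterior HOXA genes, HOXA3 was listed at 0 in every H1975 OR library and measured 0.147, 0.260 and 0.344 FPKM in H1975 (adjusted p = 0.00299, unfiltered fit). HOXA3 acts in pharyngeal arch development, and its span on GRCh37 encloses HOXA4, HOXA5 and HOXA6 on the same strand. HOXA2, a hindbrain gene, was at 0 in H1975 OR and averaged 0.012 FPKM in H1975, and it did not pass the test (adjusted p = 0.101). It passed without the third H1975 library (adjusted p = 0.0478).

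On the posterior side, HOXA13, which forms the digits and the urogenital tract, measured 0.0125, 0.0235 and 0.0111 FPKM in H1975 OR and 0.215, 0.227 and 0.253 FPKM in H1975. The ratio of means was 0.0677, the lowest of the HOXA genes with a value in both lines, and the gene passed the unfiltered test (adjusted p = 1.87e-05). HOXA11, a gene of the forearm and kidney, was listed at 0 in H1975 OR and measured 0.108, 0.107 and 0.103 FPKM in H1975 (adjusted p = 1.8e-05). Within the posterior group, HOXA9 and HOXA10 thus stayed within a ratio of 0.645 of their parental level, while the genes on the far side, HOXA11 and HOXA13, were at or near 0.

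HOXD genes with a higher level lay on the anterior and central side. HOXD3, which patterns the upper neck vertebrae in mice, measured 0.550, 0.907 and 0.714 FPKM in H1975 OR and 0.119, 0.175 and 0.0864 FPKM in H1975 (log2 fold change 0.61, adjusted p = 0.000787, unfiltered fit). HOXD8 measured 0.0942, 0.176 and 0.149 FPKM in H1975 OR and 0.0305, 0.0172 and 0.0150 FPKM in H1975, a 6.69-fold ratio of means (adjusted p = 0.00284). Both were higher in every H1975 OR library than in any H1975 library. The coverage of HOXD3 was thin, at 0.965 to 1.51 in H1975 OR and 0.185 to 0.338 in H1975. HOXD4, enclosed by the span of HOXD3 on the same strand, measured 0.692, 0.766 and 0.580 FPKM in H1975 OR and 0.497, 0.486 and 0.431 FPKM in H1975. Its 1.44-fold ratio passed the test (adjusted p = 0.0171), though not without the first H1975 OR library (adjusted p = 0.0512) or the third H1975 library (adjusted p = 0.0591).

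The remaining 6 HOXD genes stayed at or under 0.0497 FPKM in every library. HOXD12, a limb gene, was listed at 0 in H1975 OR and averaged 0.0293 ± 0.00761 FPKM in H1975 (SD, n = 3; adjusted p = 0.00582). HOXD1, at 0 in H1975 OR and 0.0212 ± 0.0148 FPKM in H1975 (SD, n = 3), did not pass (adjusted p = 0.0707). HOXD9, HOXD10, HOXD11 and HOXD13, the posterior limb genes of the cluster, showed no call.

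Most HOXB genes were near the floor: 7 of 10 stayed at or under 0.0878 FPKM in every library. HOXB9, the highest, measured 0.234, 0.223 and 0.256 FPKM in H1975 OR and 0.533, 0.551 and 0.413 FPKM in H1975 (ratio of means 0.476, adjusted p = 0.00142, unfiltered fit). HOXB9 is a thoracic patterning gene and a neighbour of HOXB7, whose long span encloses HOXB8 and HOXB9. HOXB7 measured 0.0688, 0 and 0 FPKM in H1975 OR and 0.167, 0.0915 and 0.170 FPKM in H1975 (adjusted p = 0.0121). HOXB3, an anterior gene, measured 0.0817, 0.0213 and 0.150 FPKM in H1975 OR and 0.00702, 0.00560 and 0.0422 FPKM in H1975. Its libraries overlapped and it did not pass (adjusted p = 0.129), but it did without the second H1975 OR library (adjusted p = 0.0224), as did HOXB8 in the lower direction (adjusted p = 0.0254, against 0.336 with all libraries).

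Noncoding genes of the clusters lie between and across the coding ones, and 17 were found by symbol in the library files, all of them on the strand opposite to a member they overlap. They are not in the table that was tested, so their levels are given without a test. HOTAIR, an RNA of the HOXC cluster known for its reported binding to Polycomb complexes, measured 0.129, 0.126 and 0.106 FPKM in H1975 OR and 0, 0 and 0.0101 FPKM in H1975. It lies between the posterior genes HOXC11 and HOXC12 and overlaps HOXC11, which itself was near 0. HOXC-AS1 was lower in H1975 OR, at 0.476, 0.428 and 0.584 FPKM against 0.791, 0.680 and 0.706 FPKM in H1975. HOXC-AS2 overlapped between the lines, at 0.861 to 1.11 FPKM in H1975 OR and 0.919 to 1.29 FPKM in H1975.

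In the HOXD cluster the antisense genes moved in opposite directions. HOXD-AS2, which overlaps HOXD3, HOXD8 and HOXD9, measured 0.739, 0.863 and 1.01 FPKM in H1975 OR and 0.284, 0.221 and 0.181 FPKM in H1975. HOXD-AS1, at the HOXD1 end, measured 0.107, 0.0913 and 0.0877 FPKM in H1975 OR and 0.441, 0.470 and 0.544 FPKM in H1975. Neither pair of groups overlapped. In HOXA, HOXA-AS3, which runs across HOXA3 to HOXA7, was at 0 in every H1975 OR library and at 0.107, 0.174 and 0.109 FPKM in H1975. HOXA-AS2 was also at 0 in every H1975 OR library and averaged 0.04 FPKM in H1975, and HOXA10-AS overlapped between the lines.

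Whether the values were made with regard to strand is not given in the sources used here, so sense and antisense reads cannot be told apart where genes overlap. Of the 40 members, 26 have a span that overlaps an antisense gene, 21 overlap another member on the same strand and 35 do at least one of these. HOXD3 and HOXD8, which were higher, share bases with HOXD-AS2, which was also higher. HOXD-AS2 spans chr2:176986339-177001826 and encloses HOXD8, while HOXD3 runs from 177001340 to 177037830 and shares only one end with it. HOXD9 also lies inside HOXD-AS2 and stayed at or under 0.0147 FPKM in every library. HOXC13 is overlapped by HOXC13-AS, which measured 0, 0.124 and 0.0137 FPKM in H1975 OR and 0, 0 and 0.0518 FPKM in H1975, far under HOXC13 itself. The spans are those of the library files on GRCh37.

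**Figure D3:**
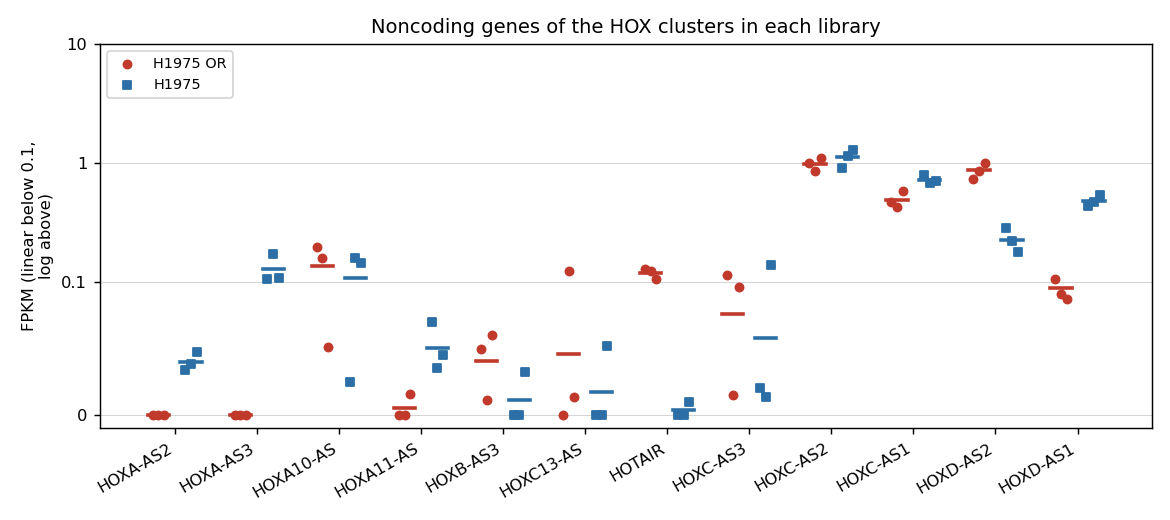
FPKM in each library of the 12 noncoding HOX cluster genes that reached 0.03 FPKM, on an axis that is linear below 0.1 and logarithmic above (red circles, H1975 OR; blue squares, H1975; short lines, group means). HOTAIR and HOXD-AS2 lie higher in H1975 OR, and HOXA-AS2, HOXA-AS3, HOXA11-AS, HOXC-AS1 and HOXD-AS1 lie lower, without overlap.

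The genes around each cluster were read for comparison. On GRCh37 the HOXA members span chr7:27132612-27239725, HOXB chr17:46605888-46806540, HOXC chr12:54332535-54449814 and HOXD chr2:176957619-177055688. Of the 10 nearest tested genes of HOXA, 5 on each side, 6 were lower in H1975 OR and 2 higher. Those of HOXD gave 7 lower and 1 higher, those of HOXB 2 lower and 5 higher, and those of HOXC 3 lower and 5 higher. The shares over all genes tested were 38.1% lower and 39.9% higher. Over all 567 tested genes of chromosome 7, 397 were lower and 97 higher, with a median log2 fold change of -0.55, against 0.01 over all genes tested. The lower level of HOXA thus stood on a chromosome where most genes were lower. Chromosome 2 also leaned lower (405 of 775 lower, 195 higher, median -0.21), while the sum of HOXD on it was higher. Chromosome 12 gave 213 of 631 lower and 273 higher (median 0.06), and chromosome 17 gave 325 of 753 lower and 275 higher (median -0.04). Copy number was not measured.

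Near HOXA, SKAP2, an adaptor of Src-family kinases, averaged 11.5 FPKM in H1975 OR and 41.8 FPKM in H1975 (log2 fold change -1.78, adjusted p = 2.83e-10). On the other side HIBADH, an enzyme of valine breakdown, averaged 46.6 FPKM in H1975 OR and 51.5 FPKM in H1975 and did not pass (log2 fold change -0.14, adjusted p = 0.0591). CREB5, a transcription factor further out, was higher (log2 fold change 1.19, adjusted p = 1.64e-08). For HOXD the direction of the neighbours was not that of the cluster: MTX2, a mitochondrial import protein, was lower (log2 fold change -0.77, adjusted p = 1.42e-07) and KIAA1715 did not pass (log2 fold change -0.15, adjusted p = 0.0531). For HOXC, CALCOCO1 on the HOXC13 side was higher (log2 fold change 1.18, adjusted p = 2.16e-08), and SMUG1, a DNA repair glycosylase on the HOXC4 side, was lower (log2 fold change -0.46, adjusted p = 0.000277). Within 5 Mb of the clusters, 13 of 38 tested genes were higher and 22 lower around HOXA, 32 of 98 higher and 45 lower around HOXB, 61 of 154 higher and 61 lower around HOXC, and 7 of 33 higher and 23 lower around HOXD. For HOXB this lean is opposite to that of its 10 nearest genes. Over all genes tested, 39.9% were higher and 38.1% lower.

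**Figure D4:**
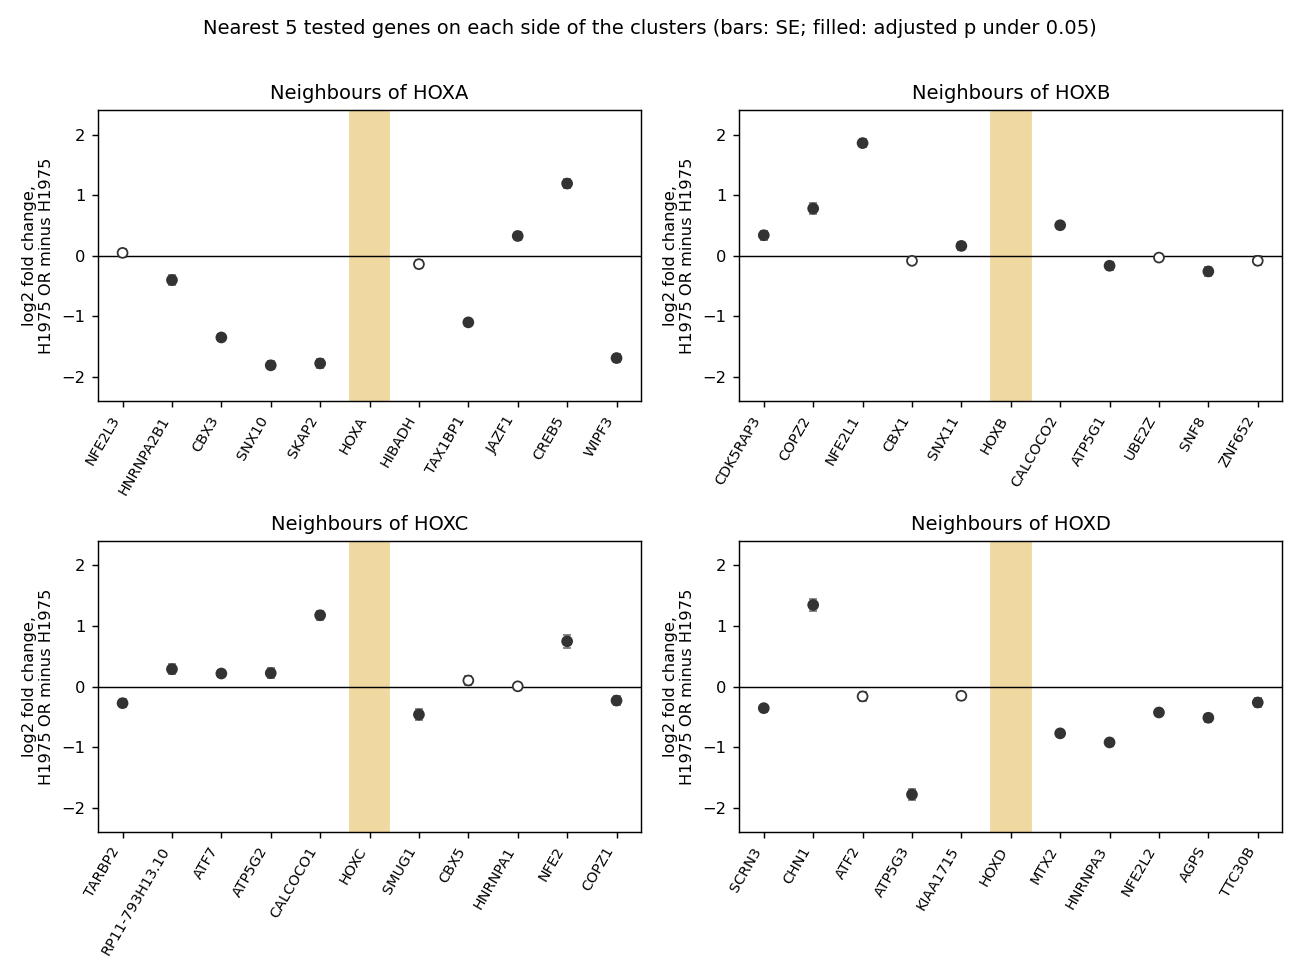
Log2 fold change (H1975 OR minus H1975, on log2(FPKM + 1)) of the 5 nearest tested genes on each side of each cluster, in chromosome order, with SE bars; filled points passed an adjusted p of 0.05 and the shaded band marks the cluster. Around HOXA and HOXD most neighbours are lower, around HOXB and HOXC they fall on both sides of 0.

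HOX proteins bind DNA with cofactors of the PBX, MEIS and PKNOX families, and of 8 of these genes tested, 3 were higher and 4 lower in H1975 OR (median log2 fold change -0.11). MEIS3 measured 8.84, 9.78 and 11.4 FPKM in H1975 OR and 3.04, 2.52 and 3.22 FPKM in H1975 (log2 fold change 1.48). PBX genes moved both ways: PBX2 averaged 19.6 FPKM in H1975 OR and 9.38 FPKM in H1975, and PBX3 8.26 FPKM in H1975 OR and 14.0 FPKM in H1975. All 3 passed the test. Among all genes tested, 39.9% were higher and 38.1% lower.

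Polycomb subunits, which keep HOX clusters silent, gave 11 higher, 10 lower and 9 not past the test of 30 (median log2 fold change 0.03). For this and the next lists, the shares over all genes tested were 39.9% higher and 38.1% lower. RING1, a ubiquitin ligase of the first Polycomb complex, averaged 28.9 FPKM in H1975 OR and 13.3 FPKM in H1975 (log2 fold change 1.06), and PCGF5, which pairs with it, averaged 16.4 FPKM in H1975 OR and 6.28 FPKM in H1975 (log2 fold change 1.26). Trithorax-type activators gave 6 higher, 5 lower and 7 not past of 18 (median -0.03). MLLT1, a reader of acetylated histones in elongation complexes, averaged 31.1 FPKM in H1975 OR and 14.0 FPKM in H1975. CTCF, cohesin and other boundary factors gave 1 higher, 4 lower and 3 not past of 8 (median -0.16), with the cohesin subunit RAD21 at 47.4 FPKM in H1975 OR and 102 FPKM in H1975 (log2 fold change -1.09).

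Retinoic acid is a classic inducer of HOX genes, anterior ones first. Of 18 genes of its synthesis, transport, breakdown and receptors, 10 were tested, and 8 of them were lower, 1 higher and 1 not past the test in H1975 OR, with a median log2 fold change of -1.19, against 0.01 over all genes tested. Lower calls made up 38.1% and higher calls 39.9% of all genes tested. CRABP2, which carries retinoic acid to its receptors, averaged 2.11 ± 0.591 FPKM in H1975 OR and 101 ± 5.74 FPKM in H1975 (SD, n = 3 each; log2 fold change -5.06). ALDH1A3, which makes retinoic acid from retinal, averaged 1.66 FPKM in H1975 OR and 17.1 FPKM in H1975 (log2 fold change -2.77). ALDH1A2, of the same enzyme family, was higher without overlap, at 0.494 FPKM in H1975 OR and 0.0289 FPKM in H1975. It fell under the filter. The breakdown enzyme CYP26B1 was lower (log2 fold change -0.71). The receptors RARA (log2 fold change -1.46), RXRA (-1.33) and RARG (-1.04) and the retinal reductase DHRS3 (-1.33) were also lower, and RXRB was higher (1.05). Whether these genes play a part in the HOX differences was not tested. The EVX and ParaHox genes, homeobox relatives of the clusters, stayed under 0.1 FPKM in every library for all 8.

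**Figure D5:**
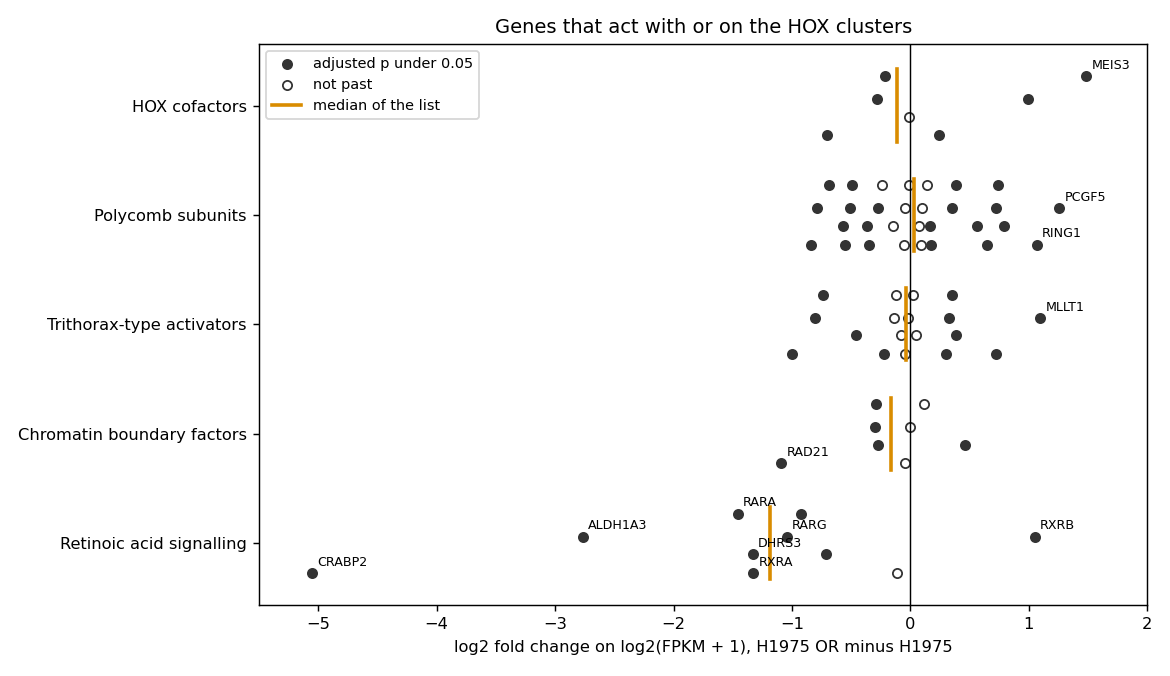
Log2 fold change (H1975 OR minus H1975, on log2(FPKM + 1)) of the tested genes described here that act with or on HOX clusters, by list, 1 point a gene, spread vertically for legibility; filled points passed an adjusted p of 0.05, orange lines are medians of the whole lists and genes that changed by 1 or more are named. Retinoic acid genes lie mostly below 0 (median -1.19), while the other medians lie between -0.16 and 0.03.

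Markers of other cell types were read beside these results. Of 9 fibroblast markers 2 were tested, COL1A1 and PDGFRB, both higher in H1975 OR, and the summed level of the list was 18.1 to 22.0 FPKM in H1975 OR and 2.44 to 2.97 FPKM in H1975, while DCN was listed at 0 in every library. Of 8 leukocyte markers CD14 and CD68 were tested and higher, with sums of 70.4 to 80.4 FPKM in H1975 OR and 24.1 to 27.6 FPKM in H1975, while CD3E was at 0 in every library and PTPRC reached no more than 0.0404 FPKM. Endothelial sums were 1.19 to 1.53 FPKM in H1975 OR and 0.679 to 0.851 FPKM in H1975 over 5 of 6 markers, and CDH5 was higher. Neuroendocrine sums were 0.551 to 0.667 FPKM in H1975 OR and 0.389 to 0.551 FPKM in H1975. The part of these markers in the HOX differences was not tested.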

How the data were processed

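Total RNA of the 6 libraries was extracted with Trizol and made into libraries with an mRNA kit, per the labels' protocols. Build GRCh37 and DESeq, with no version or role, are named per the submitters' processing notes. How reads were aligned and quantified, and whether by strand, is not given in the sources used here. Per gene, the authors deposited FPKM in a table of the series and, per the file headers, coordinates, coverage signal, FPKM and TPM in a file for each library. Between 1 and 4 genes per library differed between table and file by more than 1e-05 FPKM.

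For genes averaging 1 FPKM or more in at least one group, log2(FPKM + 1) was compared by limma 3.58.1 (R 4.3.3) with trend and robust moderation, two-sided, and p-values were adjusted over all genes by Benjamini-Hochberg. Every adjusted p is from limma. The same fit with no filter on low values covers genes above 0 in any library. The method was tested on simulated data. Depth in reads is unknown, so counting error is not given. A listed 0 may reflect a failed estimate, and no fold is computed for genes at 0 throughout a group. Alternatives were the filter, the pseudocount, TPM, median-of-ratios scaling, plain moderation, a replicate block and each library left out. Every HOX member is counted, and those that reached 0.1 FPKM are described singly. A few single-gene results are not reported here. From the lists, genes past the test with a log2 fold change of at least 1 are named, and any others were chosen after their values were seen. The members and lists were chosen with earlier results of these data known. P-values measure the spread between these libraries.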

Additional observations from a re-analysis of the deposited data

How the results depend on the processing

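The count of HOX members past the test depended on the filter: 3 of 6 when 1 FPKM on average was asked of one line, 1 of 4 when it was asked of both, 17 of 37 with no filter, and 15 of 21 at 0.1 FPKM in one line with a pseudocount of 0.1, an alternative chosen after seeing the data. Over all genes, 9448 of 12107, 8217 of 10829, 11014 of 18038 and 10863 of 14375 passed under these settings in the same order, so the HOX share was not above that of all genes in any of them. Each filter lets in a different number of members. With each library left out in turn, the count was 3 to 4 of the 6, and 15 to 18 with no filter. HOXC13, HOXC10 and HOXA10 kept their direction and call in every alternative that tested them, with log2 fold changes of 1.49 to 1.59, 0.36 to 0.42 and -0.51 to -0.41 when a library was left out. HOXC6, not past the test, ran from -0.13 to 0.18 and reversed to 0.18 without the third H1975 OR library and to 0.04 without the third H1975 library, and the cause was not tested. The summed levels kept their direction under all 8 alternatives, with log2 ratios on leaving out a library of -1.32 to -1.22 for HOXA, -0.89 to -0.72 for HOXB, 0.33 to 0.44 for HOXC and 1.05 to 1.30 for HOXD. Over all genes, 8982 to 9255 passed with a library left out, against 9448 with all. Replicate numbers did not pair the libraries (correlations of same-numbered deviations -0.14, 0.08 and 0.10), and a replicate block gave 9422 genes and 3 of the 6 HOX members; with no filter, HOXA4 did not pass under it (adjusted p = 0.059) or with plain moderation (adjusted p = 0.0521). Most HOX levels are under 1 FPKM, where the number of reads is unknown and an exact 0 cannot be told from a low level.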
